A study of Homo sapiens with 12 samples.

Results

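The HOX genes of the 4 human clusters were followed in RNA sequencing of 2 uterine leiomyosarcoma (uLMS) cell lines. Members were the rows of the count table whose symbol is HOX followed by a cluster letter from A to D and a number, which gave 39 of 60649 genes. Of these, 11 belong to HOXA (chr7:27092993-27200091, minus strand), 10 to HOXB (chr17:48528526-48728750, minus strand), 9 to HOXC (chr12:53938831-54056030, plus strand) and 9 to HOXD (chr2:176092721-176190907, plus strand), in hg38 coordinates. SK-UT-1B comes from a primary uterine tumor, and SK-LMS-1 comes from a vulvar metastasis. Both are established lines with the genotype given as WT, so each tumor site is represented by 1 line, and the site cannot be told apart from the line. Cells were given DMSO, the gamma secretase inhibitor MK-0752, or MK-0752 together with the nucleoside analog gemcitabine and the taxane docetaxel (the combination). SK-LMS-1 was sequenced after DMSO in 4 libraries (2-1 and 2-3, named set 2 here, and 4-1 and 4-2, named set 4), after MK-0752 in 2 (2-2 and 2-3) and after the combination in 2 (4-1 and 4-2). SK-UT-1B was sequenced after DMSO in 2 libraries (4-1 and 4-2) and after the combination in 2 (3-1 and 3-3), and not after MK-0752 alone. All exposures lasted 72 h. MK-0752 alone was given at its own IC30, and in the combination each drug was given at the IC30 found for the drugs together, which is a lower dose than its IC30 alone, so the MK-0752 dose differed between these treatments. No source states separate cultures for the libraries, so p-values measure the spread between these libraries, which may be technical.

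HOX genes encode homeodomain transcription factors that give cells their position along the head-to-tail axis. Genes of the same number in different clusters are paralogs. Low numbers lie at one end of a cluster and act toward the head, and high numbers lie at the other end and act toward the tail, in the limb ends and in the genital tract. Many adult tissues keep the HOX pattern of their origin. HOXA9, HOXA10, HOXA11 and HOXA13 pattern the oviduct, uterus, cervix and vagina, HOXB13 acts in the prostate and the lower spine, and HOXC13 acts in hair and nails. Polycomb proteins keep silent HOX genes off, Trithorax proteins keep active ones on, and TALE homeodomain proteins (PBX, MEIS and PKNOX) bind DNA together with HOX proteins.

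The promoters of 4 posterior members are shown because HOXA13 and HOXA11 were higher in SK-LMS-1, HOXD13 was higher in SK-UT-1B, and HOXD12, its neighbor on the chromosome, went the other way. Each sequence gives the 250 bases before the start of the gene, 5′ to 3′ in the direction of transcription, from RefSeq (GRCh38.p14). Capitals mark every match on either strand to the TATA motif TATAAA, the CAAT motif CCAAT or the GC motif GGGCGG, and the TATAAA matches on the 2 strands of HOXD13 overlap. The positions are chr7:27185233-27185482, minus strand, for HOXA11, and chr7:27200092-27200341, minus strand, for HOXA13. They are chr2:176099545-176099794, plus strand, for HOXD12, and chr2:176092471-176092720, plus strand, for HOXD13.
HOXA11: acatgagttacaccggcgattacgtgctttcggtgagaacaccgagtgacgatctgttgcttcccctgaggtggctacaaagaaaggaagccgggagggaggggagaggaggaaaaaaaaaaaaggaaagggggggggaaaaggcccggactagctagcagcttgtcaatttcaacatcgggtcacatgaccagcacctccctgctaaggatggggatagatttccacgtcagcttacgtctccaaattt
HOXA13: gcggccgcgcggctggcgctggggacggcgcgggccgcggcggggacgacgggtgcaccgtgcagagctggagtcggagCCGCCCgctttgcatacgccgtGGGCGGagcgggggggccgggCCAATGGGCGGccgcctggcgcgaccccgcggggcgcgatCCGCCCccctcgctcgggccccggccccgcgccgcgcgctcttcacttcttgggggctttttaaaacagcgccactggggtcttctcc
HOXD12: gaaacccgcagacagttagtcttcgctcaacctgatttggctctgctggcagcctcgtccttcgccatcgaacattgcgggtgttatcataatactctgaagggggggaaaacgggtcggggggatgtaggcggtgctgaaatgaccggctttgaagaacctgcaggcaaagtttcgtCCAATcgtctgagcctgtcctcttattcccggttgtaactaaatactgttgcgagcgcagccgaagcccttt
HOXD13: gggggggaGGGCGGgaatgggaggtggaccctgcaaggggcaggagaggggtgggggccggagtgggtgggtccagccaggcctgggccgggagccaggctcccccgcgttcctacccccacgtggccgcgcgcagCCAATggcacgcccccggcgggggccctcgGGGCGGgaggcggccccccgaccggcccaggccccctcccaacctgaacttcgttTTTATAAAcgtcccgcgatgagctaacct

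These windows differ in composition. HOXA13 held 40 CG dinucleotides, 4 GGGCGG and 1 CCAAT. HOXD13 held 21 CG dinucleotides, 2 TATAAA, 1 CCAAT and 2 GGGCGG. HOXD12 held 16 CG dinucleotides and 1 CCAAT, and HOXA11 held 11 CG dinucleotides and no match. Of 35116 RefSeq windows of the same length, 10.7% held TATAAA, 32.0% held CCAAT and 42.6% held GGGCGG, and the median was 11 CG dinucleotides. The tables matched 20 of the 39 members, with 27 windows, of which 18.5% held TATAAA, 66.7% held CCAAT and 48.1% held GGGCGG. The median HOX window held 19 CG dinucleotides. A match says only that these letters are in the window.

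Total counts on genes were 25250057 to 40709885 per library, and HOX genes took 7033 to 19707 of them. HOX genes made up 0.0436% to 0.0554% of counts in the 8 SK-LMS-1 libraries and 0.0253% to 0.0346% in the 4 SK-UT-1B libraries, with no overlap. Zeros were common: where the rest of a line's libraries predicted 5 to 500 counts for a gene, 17.4% to 34.7% of genes were at 0 in a library, while Poisson sampling gives 0.0174% to 0.0373%. A single 0 of a HOX gene was therefore not read as absence, and counts of at most 3 per library were taken as the floor, which is 0.0777 to 0.123 CPM (counts scaled to a common library size). A fold given below as at least sets a group at 0 to this floor. It describes the counts read, and with zeros this common it does not bound the level in the cells. SK-LMS-1 and SK-UT-1B also differed in the markers of their lineage. Of the 7 smooth muscle markers tested, 5 were higher in SK-LMS-1 after DMSO (CALD1, ACTA2, TAGLN, CNN1 and SMTN) and DES was lower, where by the same test 17.0% of all genes were higher and 14.1% were lower. Their summed level was 547 to 618 CPM in SK-LMS-1 and 109 to 124 CPM in SK-UT-1B, and the defining genes MYH11 and MYOCD were at the floor in every DMSO library of both lines. Of the 5 epithelial markers tested, the keratins KRT8, KRT18 and KRT19 were higher in SK-LMS-1 (against the same 17.0%), where the epithelial markers summed to 214 to 264 CPM, against 0.637 to 1.38 CPM in SK-UT-1B. CDH1 was at the floor after DMSO in both lines. ESRP1 went the other way from the keratins, at the floor in every SK-LMS-1 DMSO library and above it in every SK-UT-1B DMSO library. Of the epithelial markers, 0 were called lower in SK-LMS-1 (against 14.1% of all genes). The endothelial and leukocyte markers summed to 2.98 to 7.35 CPM in SK-LMS-1 and 0 to 0.0265 CPM in SK-UT-1B, and PECAM1 was the 1 of 3 that passed the test, higher in SK-LMS-1 (against 17.0%). The part of these markers in the HOX differences was not tested, and in bulk RNA fewer cells of a type and less RNA per cell cannot be told apart.

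Both lines expressed genes of all 4 clusters, but not the same ones. In SK-LMS-1, 27 of 39 members had more than 3 counts in every DMSO library, and HOXB1, HOXC8, HOXC11, HOXC12 and HOXC13 were at the floor in all of them. In SK-UT-1B, 29 members had more than 3 counts in both DMSO libraries, and HOXB1, HOXC5, HOXD1, HOXD11 and HOXD12 were at the floor in both. HOXB1, a hindbrain gene, had 0 counts in every library and was the 1 member that was not tested. Over all libraries, HOXC12 stayed at the floor in SK-LMS-1 and HOXD1 in SK-UT-1B.

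**Figure D1:**
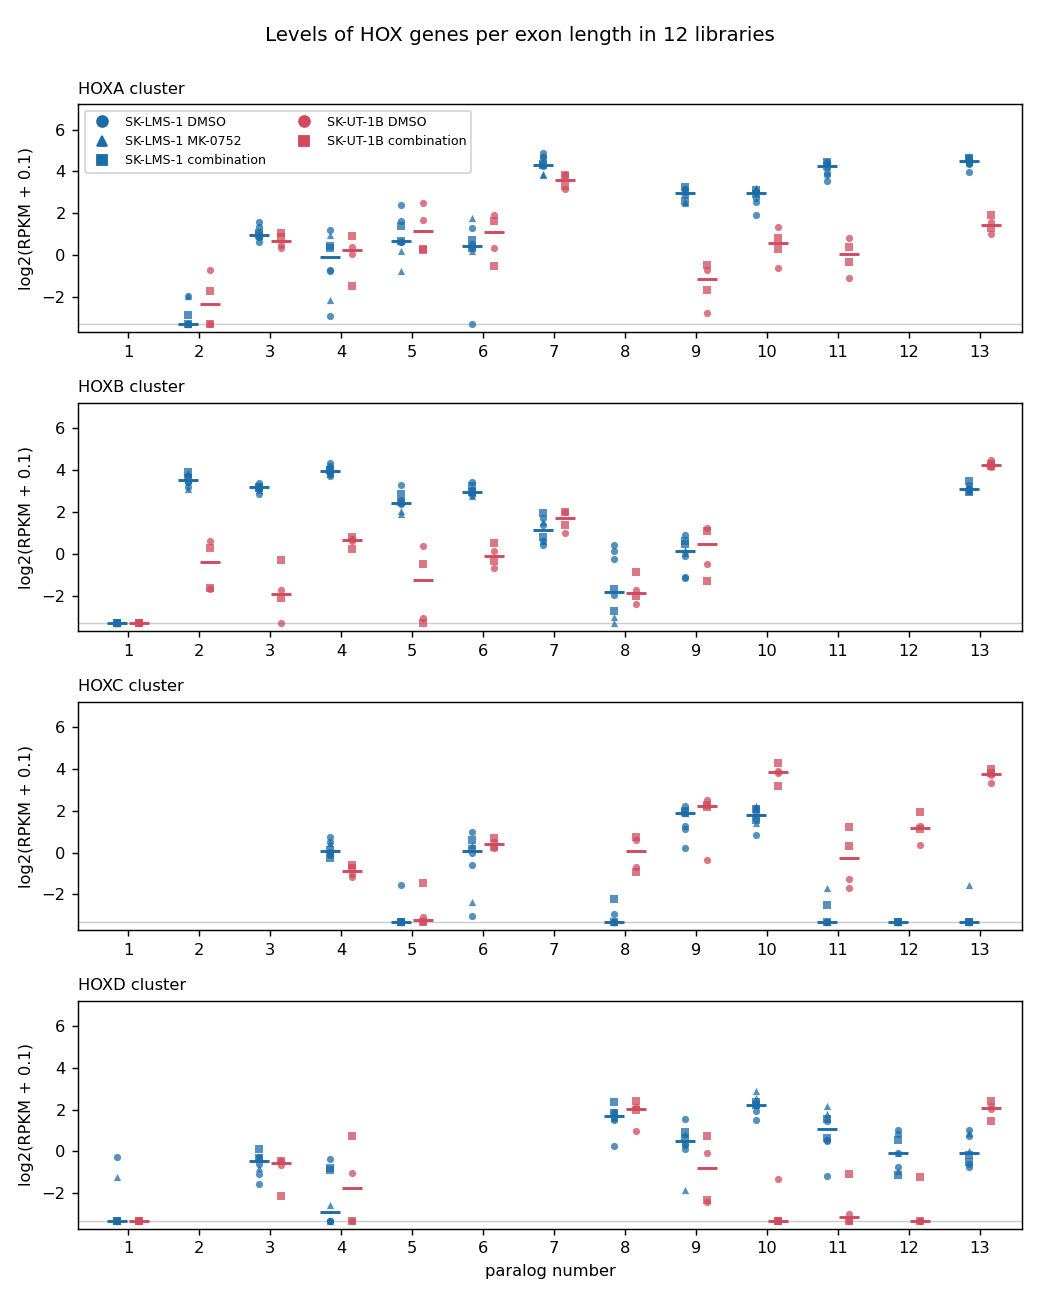
Each panel shows the plotted genes of a cluster, with the paralog number on the horizontal axis and log2(RPKM + 0.1) on the vertical axis. Each point is a library (blue for 8 SK-LMS-1 libraries, red for 4 SK-UT-1B libraries, with shapes for the treatments), each bar is the median of a line, and the gray line marks 0 counts. The blue points lie above the red ones for HOXA9 to HOXA13 and HOXB2 to HOXB6, and below them for HOXC10 to HOXC13, HOXB13 and HOXD13.

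Levels between genes were compared per exon length as RPKM, the CPM divided by the length of the merged exons in kilobases. After DMSO, HOXA7 had the highest level in SK-LMS-1, at 25 ± 4.19 RPKM (SD, n = 4). HOXA13 followed at 19.5 ± 2.78 RPKM, HOXB4 at 16.4 ± 3.27 RPKM, HOXA11 at 15.6 ± 4.08 RPKM and HOXB2 at 10.9 ± 1.6 RPKM. Neighbors in this order differed by less than the sum of their SDs. HOXB4 is best known for the expansion of blood stem cells, and HOXB2 for hindbrain segments. In SK-UT-1B, HOXB13 had the highest level, at 20.2 ± 3.19 RPKM (SD, n = 2). HOXC10, a gene of the lumbar and hindlimb level, had 14.4 ± 0.534 RPKM, HOXC13 had 11.6 ± 2.10 RPKM, HOXA7 had 11.5 ± 3.9 RPKM and HOXA5, a gene of the neck and lung, had 4.3 ± 1.77 RPKM. HOXC13 and HOXA7 did not differ beyond their spread. HOXA7 was the 1 gene among the first 5 of both lines. Exons of HOXA7 overlap the opposite-strand RNA HOXA-AS3 over 62.5% of their length, and those of HOXA11 overlap HOXA11-AS over 27.2%, so these levels are uncertain. Exons of HOXB13, HOXD13 and HOXA5 overlap no other gene.

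The cluster sums showed the contrast most plainly. HOXA made up 49.7% of the summed HOX RPKM in SK-LMS-1 after DMSO (82.8 ± 8.56 RPKM, SD, n = 4) and 27.3% in SK-UT-1B (27 ± 8.11 RPKM, n = 2). HOXB made up 38.1% (63.4 ± 6.79 RPKM) and 28.9% (28.4 ± 5.97 RPKM). HOXC made up only 4.64% in SK-LMS-1 (7.77 ± 2.68 RPKM), with libraries at 2.85% to 6.36%, and 34.9% in SK-UT-1B (33.7 ± 0.561 RPKM), with libraries at 31.3% and 38.5%. HOXD made up 7.59% (12.6 ± 1.23 RPKM) and 8.95% (8.61 ± 0.873 RPKM). Summed over all members, the level was 167 ± 14.1 RPKM in SK-LMS-1 and 97.7 ± 12.6 RPKM in SK-UT-1B. The sums were given no test.

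**Figure D2:**
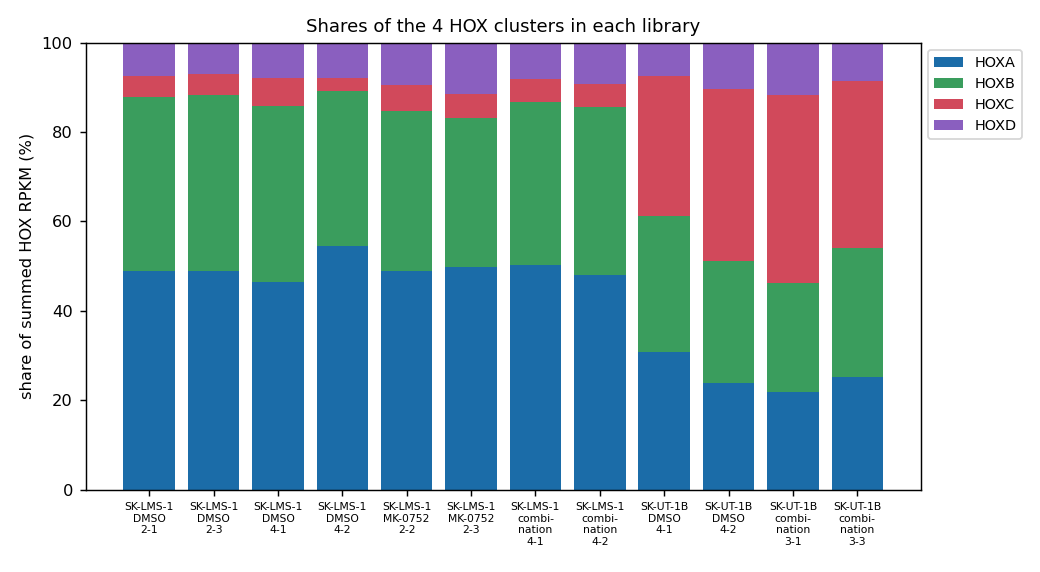
Each bar is a library, and its segments give the share of the summed HOX RPKM (%) that comes from each of the 4 clusters. HOXC takes 2.85% to 6.36% in the SK-LMS-1 DMSO libraries and 31.3% and 38.5% in the SK-UT-1B DMSO libraries. In the treated libraries it takes 5.17% to 5.72% in SK-LMS-1 and 37.3% and 42% in SK-UT-1B.

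By paralog number, SK-UT-1B was weighted toward the posterior end. Paralogs 1 to 3 made up 14.4% of the summed HOX RPKM in SK-LMS-1 and 3.97% in SK-UT-1B after DMSO. Paralogs 4 to 8 made up 41.1% and 31.6%, and paralogs 9 to 13 made up 44.5% and 64.5%. The summed level of paralogs 9 to 13 was 73.9 ± 4.48 RPKM (SD, n = 4) in SK-LMS-1 and 62.7 ± 4.49 RPKM (n = 2) in SK-UT-1B, and the cluster they came from differed. The HOXA genes 9 to 13 summed to 49.3 ± 5.73 RPKM in SK-LMS-1 and 5.17 ± 0.759 RPKM in SK-UT-1B. The HOXC genes 9 to 13 summed to 5.68 ± 1.58 RPKM and 31.2 ± 0.128 RPKM.

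Within single paralog groups the lines used different clusters. Of the summed level of paralog 13, HOXA13 gave 66.0% ± 1.89 (SD, n = 4) in SK-LMS-1 and 6.39% ± 2.54 (n = 2) in SK-UT-1B after DMSO. HOXB13 gave 30.3% ± 2.90 and 52.5% ± 1.58, HOXC13 gave 0% and 30.2% ± 1.61, and HOXD13 gave 3.72% and 10.9%. All paralog 12 counts came from HOXD12 in SK-LMS-1 and from HOXC12 in SK-UT-1B. Of paralog 10, HOXC10 gave 24.2% ± 8.48 in SK-LMS-1 and 89.9% ± 6.66 in SK-UT-1B, while the sum over the 3 paralogs was 13.1 ± 0.671 RPKM and 16.1 ± 0.597 RPKM. Of paralog 11, HOXA11 gave 92.0% and 70.3%.

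The first comparison asked how HOX expression differed between the line from the primary tumor and the line from the metastasis after DMSO. SK-LMS-1 had higher levels of 12 of the 38 members tested (17.0% of all genes tested were called higher) and lower levels of 7 (14.1% of all genes were called lower). A member was called where its log2FC was 1 or more in size and its adjusted p was under 0.05 in edgeR's quasi-likelihood test on the counts, with Benjamini-Hochberg adjustment over 21114 genes. HOXA had 5 higher and 0 lower of 11 tested, HOXB had 4 higher and 1 lower of 9, HOXC had 0 higher and 5 lower of 9, and HOXD had 3 higher and 1 lower of 9. The median log2FC was 0.74 in HOXA, 3.38 in HOXB, -2.24 in HOXC and 1.66 in HOXD, against 0.61 over all members and 0 over all genes. With members at the floor set to their bound, the median over all members was 0.34 and those of the clusters kept their values. By number, 2 higher and 0 lower of 7 fell in paralogs 1 to 3, 3 and 1 of 15 in paralogs 4 to 8, and 7 and 6 of 16 in paralogs 9 to 13.

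**Figure D3:**
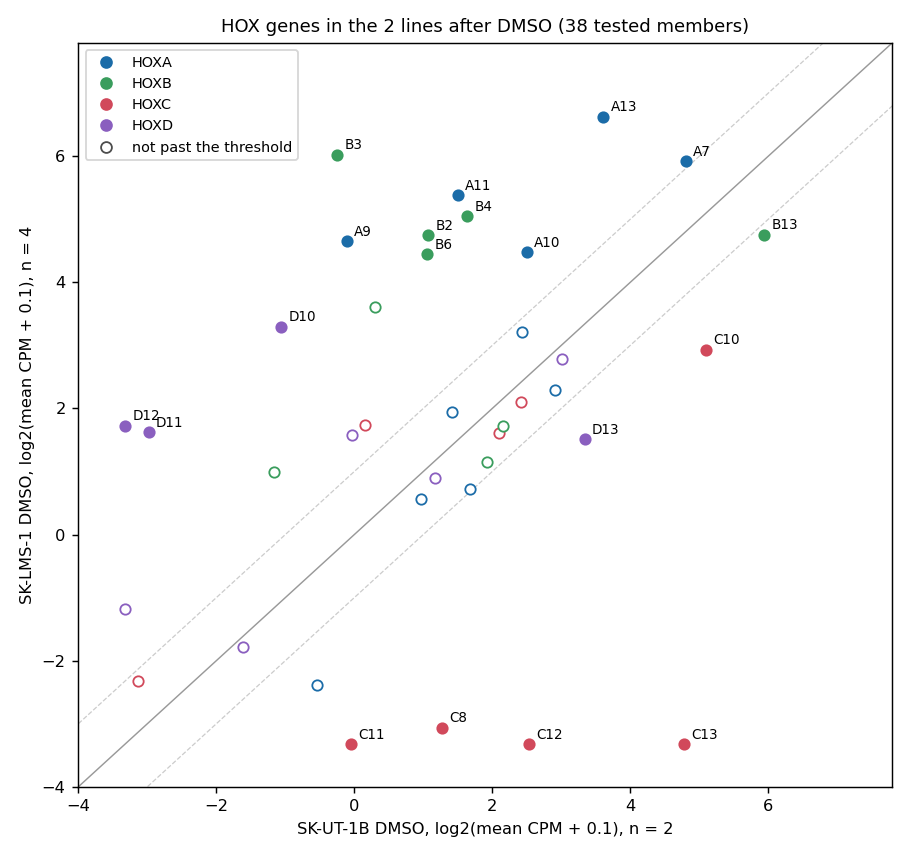
Each point is 1 of 38 members, with the mean of 2 SK-UT-1B DMSO libraries on the horizontal axis and the mean of 4 SK-LMS-1 DMSO libraries on the vertical axis, both as log2(CPM + 0.1). Filled points passed the threshold, open points did not, the solid line marks equal levels and the dashed lines mark a log2 difference of 1. The 12 members higher in SK-LMS-1 come from HOXA, HOXB and HOXD, and 5 of the 7 lower members come from HOXC.

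Among the posterior HOXA genes, HOXA13 (chr7:27193503-27200091), which patterns the distal genital tract and limbs, differed most clearly. The SK-LMS-1 libraries had 107, 102, 77.9 and 108 CPM after DMSO, against 9.73 and 14.5 CPM in SK-UT-1B. All 4 values lay far above both others, with a log2FC of 3.02 (SE 0.24, adjusted p = 2.53e-09, edgeR). HOXA11, which is required for the uterine stroma, had 31.3, 57.0, 38.3 and 40.2 CPM in SK-LMS-1 and 4.47 and 0.981 CPM in SK-UT-1B. The groups did not overlap, and the log2FC was 3.96 (SE 0.58, adjusted p = 0.000296). HOXA9, a gene of the oviduct and of leukemia, had 26.9, 24.5, 22.2 and 26.6 CPM in SK-LMS-1 and 1.52 and 0.133 CPM in SK-UT-1B. SK-LMS-1 was even and SK-UT-1B was uneven, and the log2FC of 4.96 (SE 0.81, adjusted p = 0.000487) became 7.46 without SK-UT-1B 4-1 and 4.04 without 4-2. HOXA10, a gene of the uterus and endometrium, was higher by a log2FC of 1.96 (SE 0.47, adjusted p = 0.00316), with 3.43 without SK-UT-1B 4-2 and 1.20 without 4-1. Without those libraries HOXA11 gave 3.22 and 5.34. Exons of HOXA9 overlap a readthrough transcript and MIR196B on the same strand over 15.9% of their length, and 9.93% of HOXA10 overlaps other exons of its strand, so both are uncertain.

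HOXA7 (chr7:27153716-27157936) was high in both lines. It had 46.5, 62.1, 70.9 and 61.8 CPM in SK-LMS-1 and 34.5 and 21.1 CPM in SK-UT-1B after DMSO. SK-LMS-1 was higher without overlap by a log2FC of 1.11 (SE 0.24, adjusted p = 0.000797), which fell under the fold threshold without SK-UT-1B 4-2 (0.80) or with DMSO set 2 alone (0.97). HOXA5 had 5.19, 2.46, 2.52 and 8.94 CPM in SK-LMS-1 and 9.55 and 5.25 CPM in SK-UT-1B. These ranges overlapped, and HOXA5 was not called.

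In HOXB, the genes 2, 3, 4 and 6 stood together. HOXB4 (chr17:48575507-48578350) had 25.9, 40.1, 36.5 and 29.1 CPM in SK-LMS-1 and 2.91 and 3.10 CPM in SK-UT-1B. The lowest SK-LMS-1 library was well above both SK-UT-1B libraries, with a log2FC of 3.45 (SE 0.33, adjusted p = 4.17e-08, edgeR). HOXB3 (chr17:48548870-48604912), which acts in the hindbrain and pharyngeal arches, had 63.5, 67.6, 75.5 and 53.4 CPM in SK-LMS-1 and 0 and 1.49 CPM in SK-UT-1B. Its log2FC of 6.35 (SE 1.20, adjusted p = 0.00499) became 14.01 without SK-UT-1B 4-2, which leaves a lone library at 0, and 5.39 without 4-1. HOXB2 had 26.3, 31.8, 22.2 and 26.4 CPM in SK-LMS-1 and 3.46 and 0.530 CPM in SK-UT-1B. SK-LMS-1 was even and higher by a log2FC of 3.76 (SE 0.87, adjusted p = 0.00812), with 5.58 without SK-UT-1B 4-1 and 2.94 without 4-2. HOXB6 had a log2FC of 3.45 (SE 0.42, adjusted p = 1.13e-06), from 21.6 ± 4.22 CPM (SD, n = 4) in SK-LMS-1 and 1.98 ± 0.879 CPM (n = 2) in SK-UT-1B. HOXB5, which lies between them, had 12.1 CPM and 1.13 CPM on average, with an uneven 1 and 84 counts in the SK-UT-1B libraries, and edgeR did not call it (log2FC 3.38, SE 1.55, adjusted p = 0.124). DESeq2 called it higher (log2FC 3.38, adjusted p = 0.0048), and so did edgeR without SK-UT-1B 4-2 (8.28, adjusted p = 0.0128). Exons of HOXB6 overlap those of HOXB3 over 16.6% of their length, so part of the HOXB6 counts is uncertain.

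HOXB13 (chr17:48724763-48728750), at the far end of the same cluster, went the other way. It had 26.1, 26.9, 25.1 and 29.6 CPM in SK-LMS-1 and 68.1 and 54.4 CPM in SK-UT-1B. Libraries of each line lay close together and the lines did not overlap, with a log2FC of -1.19 (SE 0.20, adjusted p = 7.66e-05, edgeR). HOXB7 and HOXB9 were not called.

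After DMSO, SK-LMS-1 had lower levels of HOXC10 to HOXC13, and HOXC9 was not called. HOXC13 (chr12:53938831-53946544) had 0 counts in all 4 SK-LMS-1 DMSO libraries and 892 and 900 counts, 30.9 and 23.9 CPM, in SK-UT-1B. Against the floor of 3 counts per library SK-LMS-1 was at least 278-fold lower (adjusted p = 0.000507, edgeR). HOXC12 (chr12:53954903-53958956) had 0 counts in the same 4 libraries and 7.51 and 3.87 CPM in SK-UT-1B, so SK-LMS-1 was at least 57.8-fold lower (adjusted p = 1.85e-05). HOXC11, which acts with its paralogs in the kidney and sacral spine, had 0 counts in the 4 and 0.692 and 1.03 CPM in SK-UT-1B, a difference of at least 8.76-fold (adjusted p = 0.00849). HOXC11 was not called with only the libraries of the comparison or with either DMSO set alone (adjusted p up to 0.0533). So the 3 most posterior HOXC genes had no read in SK-LMS-1 after DMSO. HOXC8, a gene of the lower neck and thorax, had 0, 0, 0 and 3 counts in SK-LMS-1 and 36 and 128 counts, 1.25 and 3.40 CPM, in SK-UT-1B. Its ratio of pooled counts per library size was 103, with a 95% exact interval of 34.7 to 506 that covers counting error only (adjusted p = 0.0111). The fitted log2FC of HOXC8 was -7.46 and became -9.20 without SK-LMS-1 4-2. HOXC8 was not called with DMSO set 4 alone (adjusted p = 0.119, edgeR) or without SK-UT-1B 4-2 (adjusted p = 0.0679). HOXC10 (chr12:53985065-53990279) was read in both lines, at 10.2, 8.80, 7.10 and 4.04 CPM in SK-LMS-1 and 35.1 and 33.3 CPM in SK-UT-1B. It was lower in every SK-LMS-1 library, with a log2FC of -2.24 (SE 0.34, adjusted p = 2.14e-05). HOXC4, HOXC5, HOXC6 and HOXC9 were not called, apart from HOXC6 without SK-LMS-1 4-1 (-3.20), and exons of HOXC5 overlap other genes over 67.3% of their length.

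HOXD split within its 98.2 kb. The neighbors HOXD10, HOXD11 and HOXD12 were higher in SK-LMS-1, and HOXD13 was higher in SK-UT-1B. HOXD12 (chr2:176099795-176102489), which acts in the limb ends, had 4.27, 1.30, 5.03 and 2.20 CPM in SK-LMS-1 and 0 counts in both SK-UT-1B DMSO libraries, a difference of at least 34.9-fold against the floor (adjusted p = 0.00404, edgeR). In the SK-UT-1B combination libraries HOXD12 had 0 and 31 counts, the latter 0.847 CPM, so the zeros after DMSO do not bound its level. HOXD11 had 0.716, 2.90, 2.80 and 5.52 CPM in SK-LMS-1 and 0 and 0.053 CPM in SK-UT-1B, from 0 and 2 counts. Its ratio of pooled counts per library size was 102, with a 95% exact interval of 28.2 to 849 (adjusted p = 0.00309), and its fitted log2FC of 6.39 became 9.45 without SK-UT-1B 4-2. HOXD10, which shares 18.2% of its exon length with HOXD11, had 11.5, 11.4, 9.13 and 6.87 CPM in SK-LMS-1 and 0.762 and 0 CPM in SK-UT-1B. It was even in SK-LMS-1 and read in only 1 SK-UT-1B library, and the log2FC of 4.70 (SE 1.01, adjusted p = 0.00271) became 11.28 without SK-UT-1B 4-1 and 3.64 without 4-2. HOXD13 (chr2:176092721-176095944), a gene of the digits and external genitalia, had 4.64, 1.38, 1.22 and 3.78 CPM in SK-LMS-1 and 10.5 and 9.55 CPM in SK-UT-1B. The log2FC was -1.86 (SE 0.65, adjusted p = 0.0259), and the call was lost without SK-LMS-1 2-3 (-1.55) or 4-1 (-1.57), without either SK-UT-1B library (-1.85 without 4-1 and -1.93 without 4-2), and with either DMSO set alone. HOXD3, HOXD8 and HOXD9 were read in both lines and were not called.

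The 19 tested members that were not called between the lines after DMSO were mostly those of the middle and the anterior end of the clusters. HOXA3, which patterns the throat, was read in all 12 libraries, at 6.30 to 12.6 CPM in SK-LMS-1 (median 7.94) and 4.95 to 8.55 CPM in SK-UT-1B (median 6.46). HOXD8 had 2.92 to 13.3 CPM in SK-LMS-1 (median 8.40) and 4.85 to 13.8 CPM in SK-UT-1B (median 10.6). HOXC9 had 1.78 to 7.67 CPM (median 6.02) and 1.14 to 9.34 CPM (median 7.59). These 3 genes overlapped between the lines. HOXC4 lay at 2.01 to 4.42 CPM in SK-LMS-1 and 0.955 to 1.56 CPM in SK-UT-1B, without overlap, and its log2FC of 1.66 (SE 1.00) did not pass the test (adjusted p = 0.195, edgeR). HOXA4, HOXA6, HOXB7, HOXB8, HOXB9, HOXC6, HOXD3 and HOXD9 stayed under 7 CPM in every library of both lines. HOXA2, HOXC5, HOXD1 and HOXD4 stayed under 2 CPM and were at 0 in several libraries, 7 of 8 SK-LMS-1 libraries in the case of HOXC5.

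The DMSO libraries of the lines did not overlap for 16 members higher in SK-LMS-1 (25.3% of all genes) and 7 lower (26.6% of all genes). Over all 8 SK-LMS-1 and 4 SK-UT-1B libraries, whatever the treatment, 12 members did not overlap and were higher in SK-LMS-1 (19.4% of all genes), and these were HOXA9, HOXA10, HOXA11, HOXA13, HOXB2 to HOXB6, HOXC4, HOXD10 and HOXD12. Another 7 did not overlap and were lower (17.4% of all genes), and these were HOXB13, HOXC8, HOXC10 to HOXC13 and HOXD13.

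The second comparison asked whether the lines differed in the same members after the combination. It contrasted other libraries, but both comparisons came from a single fit of 12 libraries with a shared estimate of the spread. They are therefore not independent tests. SK-LMS-1 had higher levels of 9 members (15.6% of all genes were called higher) and lower levels of 5 (9.88% were called lower). All 14 were also called after DMSO, in the same direction, out of 19 there. The share of all genes called in both comparisons was not counted, so this overlap is not read as a trait of HOX genes. HOXA13 had a log2FC of 3.02 (adjusted p = 7.72e-09, edgeR), HOXB4 of 3.54, HOXB6 of 3.10, HOXA11 of 4.42, HOXA10 of 2.52, HOXA9 of 4.18, HOXB2 of 4.33 and HOXB3 of 4.43. HOXD10 had 11.5 and 12.4 CPM in SK-LMS-1 and 0 counts in both SK-UT-1B libraries, a difference of at least 127-fold (adjusted p = 0.000279). In SK-LMS-1 both HOXC13 and HOXC12 had 0 counts after the combination, which puts SK-LMS-1 at least 327-fold lower for the first and at least 89.3-fold lower for the second. HOXC10 had a log2FC of -2.02, HOXB13 of -1.0 and HOXD13 of -2.48 (adjusted p = 0.0248). With 1 library left out, the log2FC of HOXA9 ran from 3.632 to 5.145. Without SK-UT-1B 3-1, the log2FC of HOXC10 was -1.37, that of HOXB2 was 5.95 and that of HOXD13 was -1.93, which was not called. HOXB13 was not called without SK-LMS-1 4-1 (-0.76) or without SK-UT-1B 3-3 (-0.97), and HOXD13 was not called without either SK-LMS-1 library. HOXB3 was 6.08 without SK-UT-1B 3-3, and it was not called without any 1 of the other 3 libraries (adjusted p of 0.0621 to 0.0683). The number of members called lower became 3 without SK-LMS-1 4-1. DESeq2 called 17 members, the same 14 with HOXB5 (log2FC 4.33) and HOXD11 (3.46) higher and HOXC11 (-5.51) lower. HOXA7 had a log2FC of 0.73 (adjusted p = 0.041), under the fold threshold. HOXA7, HOXD11 and HOXD12 were called higher without SK-UT-1B 3-1, and HOXB5 without SK-UT-1B 3-3.

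The treatment comparisons asked whether MK-0752 or the combination moved HOX expression within a line. No member was called in any of them by edgeR. In SK-UT-1B the combination was called higher for 0.393% and lower for 0.166% of all genes, and 4 members had an unadjusted p under 0.05 (HOXA5, HOXD10, HOXD11 and HOXD12, against 10.5% of all genes), while DESeq2 called 1 member, HOXD10. For MK-0752 in SK-LMS-1, 0.0568% of all genes were called higher and 0.194% lower, and 4 members had an unadjusted p under 0.05 (HOXA7, HOXB8, HOXC11 and HOXC13, against 6.41%), and DESeq2 called 0. For the combination in SK-LMS-1, 0.0142% were called higher and 0.00947% lower, 0 members had an unadjusted p under 0.05 (against 4.33%), and DESeq2 called 0. The median log2FC of the members was 0.09 in SK-UT-1B after the combination, 0.02 in SK-LMS-1 after MK-0752 and 0.06 in SK-LMS-1 after the combination. The first number of the SK-UT-1B libraries differs between DMSO (4) and the combination (3), so that number and the treatment cannot be told apart there.

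**Figure D4:**
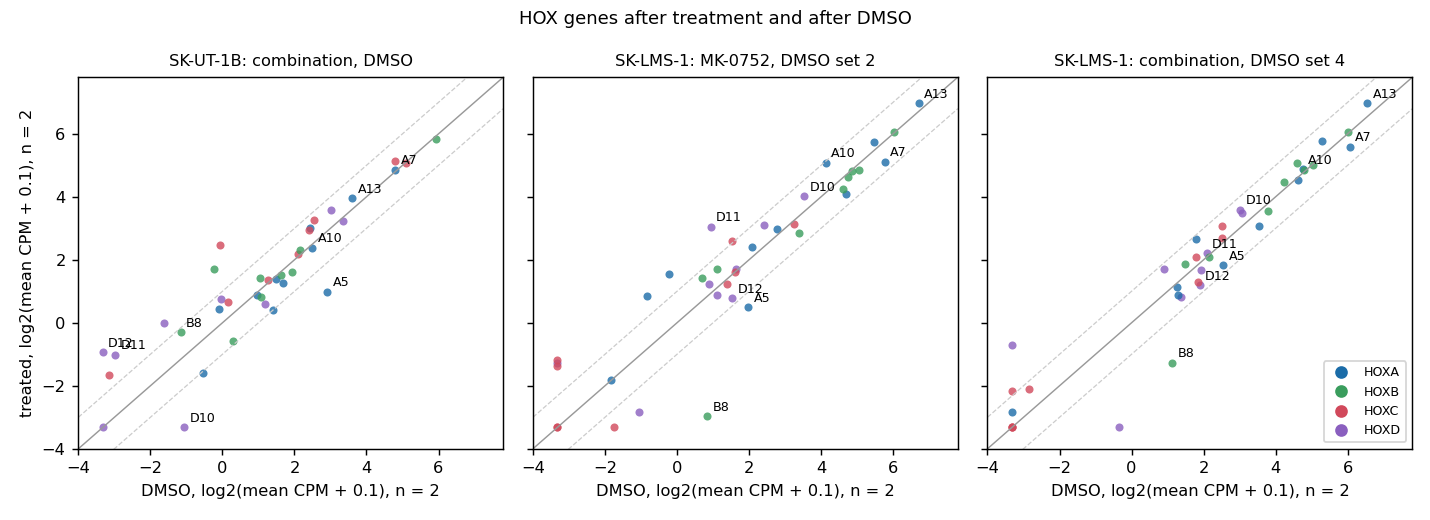
Each panel is a treatment comparison, with the mean of 2 DMSO libraries on the horizontal axis and the mean of 2 treated libraries on the vertical axis, both as log2(CPM + 0.1). Each point is a member colored by cluster, the solid line marks equal levels and the dashed lines mark a log2 difference of 1. Most members read at more than a few CPM lie between the dashed lines, and no member passed the threshold.

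HOXA7 had the lowest unadjusted p of the members after MK-0752. It had 46.5 and 62.1 CPM in DMSO set 2 and 34 and 35 CPM after MK-0752. The libraries did not overlap, and the log2FC was -0.65 (SE 0.26, unadjusted p = 0.0226, adjusted p = 0.61, edgeR). After the combination it had 48.5 and 47.4 CPM against 70.9 and 61.8 CPM in DMSO set 4 (log2FC -0.47, adjusted p = 0.907). In SK-UT-1B it had 34.6 and 23.4 CPM after the combination and 34.5 and 21.1 CPM after DMSO. Neither difference in SK-LMS-1 passed the threshold.

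HOXA5 was below DMSO on average in all 3 treatment comparisons, with none of them called. In SK-UT-1B it had 9.55 and 5.25 CPM after DMSO and 1.91 and 1.85 CPM after the combination, without overlap (log2FC -1.98, SE 0.88, unadjusted p = 0.0371, adjusted p = 0.423, edgeR). In SK-LMS-1 it had 5.19 and 2.46 CPM in DMSO set 2 and 0.841 and 1.79 CPM after MK-0752, also without overlap (log2FC -1.54, adjusted p = 0.806). After the combination in SK-LMS-1 it had 2.55 and 4.31 CPM against 2.52 and 8.94 CPM in DMSO set 4, which overlapped (log2FC -0.74). HOXA10 had 13.7 and 21.1 CPM in DMSO set 2 and 33.2 and 34.2 CPM after MK-0752 (log2FC 0.95, adjusted p = 0.806). HOXA13 had 77.9 and 108 CPM in DMSO set 4 and 122 and 128 CPM after the combination (log2FC 0.43, SE 0.23, adjusted p = 0.907), the lowest unadjusted p of that comparison at 0.0814. For HOXA10, DMSO set 4 lay at 24.1 and 29.9 CPM, between set 2 and the MK-0752 libraries.

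Members near the floor moved with single libraries. HOXD10 had 22 and 0 counts in SK-UT-1B after DMSO and none after the combination, 4.04-fold lower with the combination at the floor (unadjusted p = 0.00906, adjusted p = 0.234, edgeR). It was called lower with no filter on low counts (adjusted p = 0.000362), by DESeq2 (adjusted p = 0.0221) and without SK-UT-1B DMSO 4-2 (adjusted p = 0.00144). In the difference of the combination effects between the lines it was called lower with no filter and without SK-UT-1B DMSO 4-2, and the fit without 4-1 gave -0.55. Its DMSO level rests on 1 library, and without SK-UT-1B DMSO 4-1 both groups were at 0 and gave no value. The difference of the combination effects between the lines was called for no member (0.147% of all genes higher and 0.0853% lower). There HOXD10 and HOXD12 had an unadjusted p under 0.05 (against 7.67% of all genes), and HOXD10 had the lowest, 0.0102 (adjusted p = 0.491). HOXB8 counts were 105 and 10 in DMSO set 2, and 2 and 0 with MK-0752, a ratio of 72.6 over all 4 DMSO libraries (95% exact interval 19.9 to 603, counting error only), and against set 2 the test gave adjusted p = 0.703. HOXC13, with 0 counts in the other 7 SK-LMS-1 libraries, had 21 counts in SK-LMS-1 MK-0752 2-3. With 1 library left out, calls also appeared for HOXD11 and HOXD12, higher after the combination without SK-UT-1B 3-3, and for HOXC13, higher after MK-0752 without MK-0752 2-2, each with a lone library standing for its group.

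The DMSO sets of SK-LMS-1 served as a comparison with no drug. No member was called between set 4 and set 2 by edgeR or DESeq2. By edgeR, 0 members had an unadjusted p under 0.05 (against 5.67% of all genes), and 0.00% of all genes were called in either direction. Of all 21114 genes tested, DESeq2 called 9 higher and 21 lower. The lowest unadjusted p belonged to HOXC10, with 7.10 and 4.04 CPM in set 4 and 10.2 and 8.80 CPM in set 2 (log2FC -0.77, unadjusted p = 0.08, adjusted p = 0.794).

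The noncoding RNAs of the clusters were counted from a list of 18, of which 16 were tested. After DMSO, SK-LMS-1 was higher for 5 of these and lower for 1, against 17.0% and 14.1% of all genes, with a median log2FC of 2.23, or 1.37 with genes at the floor set to their bound. HOTTIP, which is transcribed from beyond HOXA13 and is known to help keep the posterior HOXA genes active, was at 0 counts in each of the 4 SK-UT-1B libraries and at 9.93 to 18.6 CPM in the 8 SK-LMS-1 libraries. After DMSO this made a difference of at least 165-fold (adjusted p = 8.74e-09, edgeR). HOXA11-AS (log2FC 5.29, adjusted p = 0.0174), HOXA10-AS (4.62, adjusted p = 0.00311) and HOXA-AS2 (5.21, adjusted p = 0.0136) were also higher, and HOXB-AS1 was at least 14.4-fold higher. HOXA11-AS and HOXA10-AS overlap exons of HOXA11, HOXA10 and HOXA9 on the other strand, and the strand setting of the counts is not given in the sources used here, so reads of these pairs cannot be assigned with certainty. HAGLROS, in HOXD, was called lower (log2FC -5.45, adjusted p = 0.0322). It had 1.75, 0, 0 and 0 CPM in SK-LMS-1, from 61, 0, 0 and 0 counts, and 1.66 and 3.42 CPM in SK-UT-1B. The lines overlapped, and with DMSO set 4 at 0 the fitted log2FC is not an exact fold. After the combination, HOTTIP, HOXA10-AS and HOXA-AS2 were called higher in SK-LMS-1 (against 15.6% of all genes) and 0 were called lower (against 9.88%).

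Of 11 protein-coding genes beside the clusters that were tested, SK-LMS-1 had 4 higher and 2 lower after DMSO, where 17.0% and 14.1% of all genes were called. SKAP2, at the anterior end of HOXA, had a log2FC of 4.04 (adjusted p = 2.58e-12, edgeR), and HIBADH, on the HOXA13 side, had 2.08. SKAP1, beside HOXB1, had 0 counts in both SK-UT-1B DMSO libraries and differed by at least 80.3-fold. PRAC1, next to HOXB13 and known from prostate and colon, had 0 counts in all 8 SK-LMS-1 libraries and 5.19, 9.55, 7.84 and 14.1 CPM in the 4 SK-UT-1B libraries, at least 74.8-fold lower after DMSO. Beside HOXC, CALCOCO1 was higher (log2FC 1.94) and CBX5, a heterochromatin protein, was lower (-1.63). CALCOCO1 was also the 1 neighbor called in a treatment comparison, at a log2FC of 1.13 in SK-UT-1B after the combination (adjusted p = 0.00695).

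Among the TALE partners of HOX proteins, the MEIS genes were higher in SK-LMS-1. MEIS1 had 33 ± 4.18 CPM (SD, n = 4) in SK-LMS-1 and 3.41 ± 0.955 CPM (n = 2) in SK-UT-1B after DMSO, a log2FC of 3.27 (adjusted p = 1.24e-07, edgeR). MEIS2 had a log2FC of 4.50 and MEIS3 of 2.14, while PKNOX2 was at least 26.1-fold lower. The 3 MEIS genes were called in the same direction after the combination, and no TALE gene was called in a treatment comparison.

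**Figure D5:**
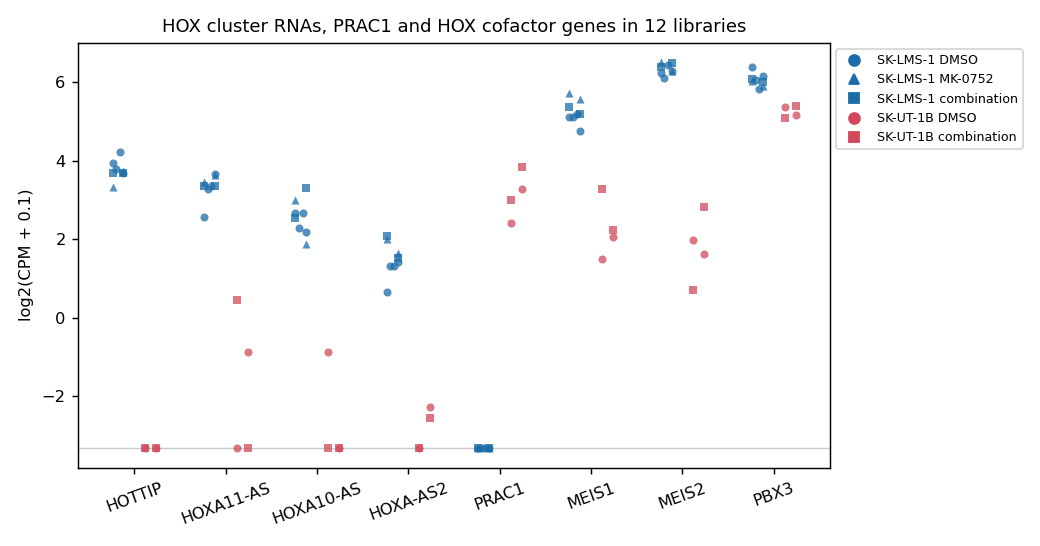
The vertical axis gives log2(CPM + 0.1) in each of 12 libraries for 4 HOX cluster RNAs, PRAC1 beside HOXB13, and the TALE genes MEIS1, MEIS2 and PBX3. Blue points are SK-LMS-1, red points are SK-UT-1B, shapes give the treatment and the gray line marks 0 counts. HOTTIP is at 0 in all 4 SK-UT-1B libraries, PRAC1 is at 0 in all 8 SK-LMS-1 libraries, and MEIS1 and MEIS2 lie higher in SK-LMS-1.

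Regulators of HOX genes were counted from lists in the same way, and their counts stand beside 17.0% of all genes called higher and 14.1% called lower. Of 24 Polycomb subunits, 5 were higher in SK-LMS-1 after DMSO (PHC2, RING1, PHF1, BMI1 and CBX7) and 6 were lower (RBBP4, MTF2, SUZ12, CBX2, CBX8 and RBBP7), with a median log2FC of -0.19. SUZ12, a core subunit of the complex that methylates H3K27, had a log2FC of -1.91, and CBX2, which reads that mark, had -4.25, while CBX7, another reader, had 2.19. After the combination in SK-UT-1B, PHF19 was called lower (log2FC -1.15, adjusted p = 0.0417, edgeR). Of 14 Trithorax, H3K27 demethylase and boundary genes, 0 were higher and 5 lower (RBBP5, WDR5, MEN1, DOT1L and KDM6A), at log2FC from -1.0 to -1.62. Of 13 caudal and retinoic acid genes, 2 were higher and 4 lower. RARB, a receptor that is itself induced by retinoic acid, had a log2FC of 7.05 (adjusted p = 4.14e-05), and CYP26A1, which breaks retinoic acid down, had 0 counts in the 4 SK-LMS-1 DMSO libraries and was at least 107-fold lower. ALDH1A3, which makes retinoic acid, had 4.32, and ALDH1A1, which also does, had -8.28.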

How the data were processed

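RNA of 12 libraries was sequenced with a stranded kit after ribosomal RNA depletion (1 × 75 base single-end reads). Per the paper's methods and the submitters' processing notes, the authors trimmed reads with Trim Galore 0.3.7, aligned them to hg38 with STAR 2.7.9a, and used SortMeRNA against ribosomal RNA. The deposited values are raw counts per gene, not normalized. Which annotation and strand setting the counts used and any removal of duplicate reads are not given in the sources used here, and duplicate reads would make counts less precise than their size implies. Total counts were 25250057 to 40709885 per library. The 8 count columns taken as SK-LMS-1 carry no line name. They were matched to the SK-LMS-1 titles by treatment and number, because each of the 4 SK-UT-1B columns names its line. Of 60649 versioned Ensembl identifiers, 60507 are in GENCODE v44 in some version, which gave lengths, coordinates and exon overlaps.

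Counts were tested with edgeR 4.0.16 in R 4.3.3 (TMM, filterByExpr, robust quasi-likelihood fit), with 12 libraries in 6 groups of 2 by line and treatment, with the SK-LMS-1 DMSO libraries split by the first number of their title. Of all genes, 21114 were tested. The SE printed with a log2FC is its size divided by the square root of the F statistic. It restates the test and is not an error that edgeR estimates. The call thresholds are those of the study's methods, a log2FC of 1 in size and an adjusted p of 0.05 (Benjamini-Hochberg). The control was DMSO set 2 for MK-0752 and set 4 for the combination. RPKM came from TMM-scaled CPM and merged exon length. A group with 0 counts was set to 3 counts per library for a fold, which is given as at least and describes the counts read. Exact intervals of ratios are 95% Clopper-Pearson.

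All members could be named. Values in every library were given for the 5 members with the highest RPKM in each line, the 5 highest and 5 lowest log2FC called between the lines after DMSO, and the member with the lowest p of each treatment comparison, and HOXA10, HOXD13 and the remaining values were added after the values were seen. For the other lists, any gene called between the lines could be named. Some genes of the members and lists are not reported here. The members and lists were chosen with earlier results of these data known. Simulated data had 200 of 19537 genes changed by a log2FC of 2 between the lines, each with a mean of at least 50 counts. There edgeR recovered 80.5%, and 7.47% of its calls were not among the changed genes, while DESeq2 1.42.0 recovered 84.5%, with 22.1%. In the real data 17.0% of genes were called higher and 14.1% lower after DMSO, and members with fewer counts were tested. The simulated rates therefore do not carry over to the HOX calls. Alternatives were DESeq2, its size factors, other filters on low counts, a replicate block, other control libraries, only the libraries of a comparison, total counts as library size, and each library left out, with the same genes tested.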

Additional observations from a re-analysis of the deposited data

Results flagged for a closer look

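In the 4 SK-LMS-1 DMSO libraries, 35 members were searched for a library far from the others by Dixon's test at the 95% level, which chance passes in about 1 of 20 groups, and 6 were found. HOXA2, a hindbrain gene, had 0.362 CPM in library 2-3 and 0 in the others. HOXC5 had 0.399 CPM in 2-3 and 0 in the others, and most of its exon length overlaps other genes. HOXD4 had 0.761 CPM in 2-3 and 0 in the others. HOXC8 had 0.0777 CPM, from 3 counts, in 4-2 and 0 in the others. HOXD1 had 1.37 CPM in 4-2 and 0 in the others. HOXD9 had 5.27 CPM in 4-1. All but HOXD9 are members with 0 counts in the other 3 libraries. There the ratio of the test is 1 whatever the value of the fourth library, so the rate of 1 in 20 does not apply to them. HOXC8 is the 1 of them called between the lines.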

How the results depend on the processing

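With 2 libraries in most groups and many genes at 0 in single libraries, members under about 5 CPM could not be ranked. Of the 19 members called between the lines after DMSO, 19 were called with DESeq2, which also called HOXB5, with its size factors and with no filter, 17 with a mean of at least 50 counts, which did not test HOXC8 and HOXC11, 18 with only the libraries of the comparison (without HOXC11), and 16 with DMSO set 2 alone (without HOXA7, HOXC11 and HOXD13) or set 4 alone (without HOXC8, HOXC11 and HOXD13). Of the 14 called after the combination, 14 were called with DESeq2, which added HOXB5, HOXC11 and HOXD11, with no filter, which added HOXD11, with a mean of at least 50 counts, which added HOXB5, and with only the libraries of the comparison, which added HOXC11. The number called lower after DMSO fell from 7 to 4 with only DMSO set 4. With total counts as library size, the HOXC sum of SK-UT-1B after DMSO moved from 33.7 to 36.8 RPKM.

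HOXD10 after the combination in SK-UT-1B was called lower by DESeq2 (log2FC -6.04) and with no filter (-6.58), so 1 member was called lower in each. With no filter, 1 member, HOXC13, was called higher after MK-0752, and 1, HOXD10, was called lower in the difference between the lines (-7.13). The causes were not tested. With 1 library left out and the same genes tested, the members called numbered 12 to 12 higher and 5 to 7 lower after DMSO, 8 to 11 higher and 3 to 4 lower after the combination, 0 to 2 higher and 0 to 1 lower after the combination in SK-UT-1B, 0 to 1 higher and 0 to 0 lower after MK-0752, and 0 to 0 higher and 0 to 1 lower in the difference between the lines. HOXD13 lost its call in 4 of 6 such fits after DMSO and HOXB3 in 3 of 4 after the combination. Without SK-LMS-1 2-3, HOXA6 was called lower after DMSO (-5.03). A lone library left in a group was assumed to vary like the other groups. HOXD10 gave no value where both groups were at 0. For the combination in SK-LMS-1 and for the DMSO sets, 0 members were called in every alternative run.

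Libraries of a number did not deviate together (correlations of -0.0386 to 0.0188), so they share only a number. With the replicate block, 12 members were called higher and 5 lower after DMSO, without HOXC8 and HOXD13, 8 higher and 5 lower after the combination, without HOXB3 (adjusted p = 0.065, edgeR), and 0 in the other comparisons.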

Other observations

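For the 2 members with the highest level in each line, the genes with the closest pattern were taken by Pearson r of log2 CPM over 12 libraries, which share 2 lines, so the values mainly follow the difference between the lines and carry no p. HOXA13 was closest to BCL6 (0.994), TBC1D8B (0.994) and ARHGEF12 (0.993). HOXA7 was closest to CNTROB (0.948), PVR (0.944) and ZNF580 (0.941). HOXB13 was closest to DMBX1 (0.984), FOXRED2 (0.983) and BMP7 (0.983). HOXC10 was closest to ZNF597 (0.972), TCF7L1 (0.966) and PSMD5 (0.963).

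HOTAIR, the noncoding RNA between HOXC11 and HOXC12, was near the floor in both lines after DMSO, at 0.071 CPM on average in SK-LMS-1 and 0 in SK-UT-1B, where both of its neighbors were read. After the combination it had 0.621 CPM on average in SK-LMS-1 and 0.902 CPM in SK-UT-1B, with 2 libraries in each group. Of the 16 noncoding RNAs of the clusters that were tested, edgeR called 0 in any treatment comparison.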
